A study of Mus musculus with 8 samples.

Results

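The tumour necrosis factor (TNF) superfamily was described in the kidney after ischaemia and reperfusion: its ligands, signalling proteins made mostly as trimers, and their receptors. Members were taken by the gene names of the array design. They are the genes whose name starts with Tnfsf or Tnfrsf followed by a digit, and Tnf, Lta, Ltb, Ltbr, Fas, Fasl, Cd40, Cd27 and Eda2r. The rule found 40 of the 36826 genes named on the array, measured by 68 of its 56605 probes. By role they were 14 ligands, 5 receptors with a death domain, 3 decoy receptors, 16 receptors that bind TRAF adaptors, and 2 others (the receptor Tnfrsf26 and the antisense RNA Tnfsf13os). Tnfsf13 itself was not among the names and is not analysed here.

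RNA of the left kidney of 8 mice was hybridised to 1-colour Agilent arrays, 2 mice in each of 4 groups. Sham mice (numbered 1 and 4 in the labels) had an abdominal incision, the only step given for them. IRI mice (30 and 34) lost the right kidney and had the left renal vessels clamped and released, a step to which the labels give 45 min. Mimic mice (6 and 7) received 5 nmol of a miR-5100 mimic on polyethylenimine nanoparticles, a cationic polymer carrier, in 200 µl by tail vein 2 days before the same operation, and control-miRNA mice (1 and 5) received 5 nmol of a control RNA in the same way. All left kidneys were taken at 24 h. The 6 operated mice other than sham therefore share the nephrectomy as well as the ischaemia, and the mimic and control-miRNA mice share the nanoparticle. Strain, sex and age are not given in the sources used here, and no probe was named for miR-5100.

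TNF ligands bind receptors with cysteine-rich repeats. A receptor with a death domain can recruit adaptors that lead to caspase activation or to NF-kB, a receptor without one recruits TRAF proteins and signals mainly to NF-kB and MAP kinases, and a decoy receptor binds a ligand without passing on a full signal. In the kidney, TNF and TWEAK, the protein encoded by Tnfsf12, are known as signals in tubular injury and inflammation, and tubular cells as well as infiltrating leukocytes carry some of the receptors. The mature miR-5100 sequence in RefSeq lies at chr11:60728698-60728718 on the plus strand of GRCm38.p6 and has the same letters as the injected mimic. It is shown because the mimic is the agent that separates the mimic group from its control, with the seed (bases 2 to 8) in capitals.
mmu-miR-5100: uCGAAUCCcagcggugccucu

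Levels are given as the log2 of the background-subtracted fluorescence minus the 75th percentile of the same array, so that a difference of 1 between groups is a 2-fold change and a level below 0 lies under that percentile. Levels of different probes cannot be set against each other. The 75th percentile of the signal lay between 408 and 600 on the sham, IRI and control-miRNA arrays and at 308 and 242 on the mimic arrays, the dimmest of the slide. On each array 53.2% to 58.8% of its 59305 spots passed the scanner's test of being well above background. Sham mice were most alike over all genes (SD of the log2 difference within the pair, 0.33), followed by IRI (0.39), control-miRNA (0.51) and mimic mice (0.67). Slc34a1, Umod, Aqp2 and Nphs1, which mark proximal tubule, thick ascending limb, collecting duct and podocyte, were well above background on all 8 arrays. The labels number the mice separately, and p-values measure the spread between these mice, pooled over the 4 groups of 2. Errors are moderated standard errors from limma with n = 2 in each group, and a gene is said to rise or fall where its p-value, adjusted over 21264 genes, was below 0.05. In whole kidney, fewer cells of a type and less RNA per cell cannot be told apart.

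A member was tested if both mice of some group had a probe of it well above background, and 28 of the 40 passed. Of these, 21 were well above background on all 8 arrays. Eda2r, Tnfrsf9, Tnfsf9 and Tnfrsf18 passed only through injured groups, so a difference from sham was built into their selection. Eda2r and Tnfrsf9 were above background in 0 sham kidneys, Tnfsf9 and Tnfrsf18 in 1 each. A further 11 members were not above background on any array: the ligands Fasl, Tnfsf4, Tnfsf11, Tnfsf14 and Tnfsf18, the lymphocyte receptors Cd27, Tnfrsf8, Tnfrsf13c and Tnfrsf17, the decoy Tnfrsf11b (osteoprotegerin) and Tnfrsf26. Cd40, the receptor of CD40 ligand on B cells and macrophages, was above background on 3 arrays, 1 each in sham, IRI and control-miRNA mice, and was not tested.

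In IRI kidneys the receptors Tnfrsf12a, Tnfrsf23, Tnfrsf9, Tnfrsf1a, Tnfrsf10b and Tnfrsf22 and the ligands Tnfsf9 and Tnfsf12 rose against sham, and the antisense RNA Tnfsf13os fell. That is 9 of 28 tested members, 8 higher and 1 lower, where 18.3% of all genes tested were called, 9.45% higher and 8.85% lower. The 2 groups did not overlap in 20 members, where 71.8% of all genes did not. The median difference of the tested members was 0.24, and that of all genes tested was -0.08. In control-miRNA kidneys 6 of 28 rose and 0 fell, where 17.3% of all genes were called (9.55% higher, 7.79% lower), with a median of 0.25 against -0.05 for all genes; 18 members did not overlap, where 68.7% of all genes did not. In mimic kidneys 9 rose and 1 fell, where 28.0% of all genes were called (15.2% higher, 12.8% lower), with a median of 0.28 against 0.11 for all genes; 17 members did not overlap, where 68.8% of all genes did not. The 3 comparisons share the 2 sham mice, so their values are given side by side and do not support each other. The control-miRNA count was 10 in a fit of the 2 groups alone, where 4327 of all genes were called against 3687. The mimic count fell to 5 in such a fit, where 3039 genes were called against 5964. It fell to 1 (Tnfrsf23) with array brightness as a covariate, where 115 genes were called. Leaving out either sham mouse also lowered the mimic count and that of all genes.

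The same 6 members rose in all 3 comparisons with sham: Tnfrsf12a, Tnfrsf23, Tnfrsf10b, Tnfrsf1a, Tnfrsf9 and Tnfsf9. Over all genes tested, 5.64% rose in all 3 and 4.68% fell in all 3, and 0 members fell in all 3. In 9 members every injured kidney lay above both sham kidneys, where 17.9% of all genes had this pattern: those 6 and Tnfrsf22, Tnfrsf19 and Eda2r. The reverse order was found in 1 member, Tnfsf10, where 17.7% of all genes had it. Among the members that lay above sham, Tnfrsf9, Tnfsf9 and Eda2r were kept only through injured groups, so a difference from sham was built in.

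**Figure D1:**
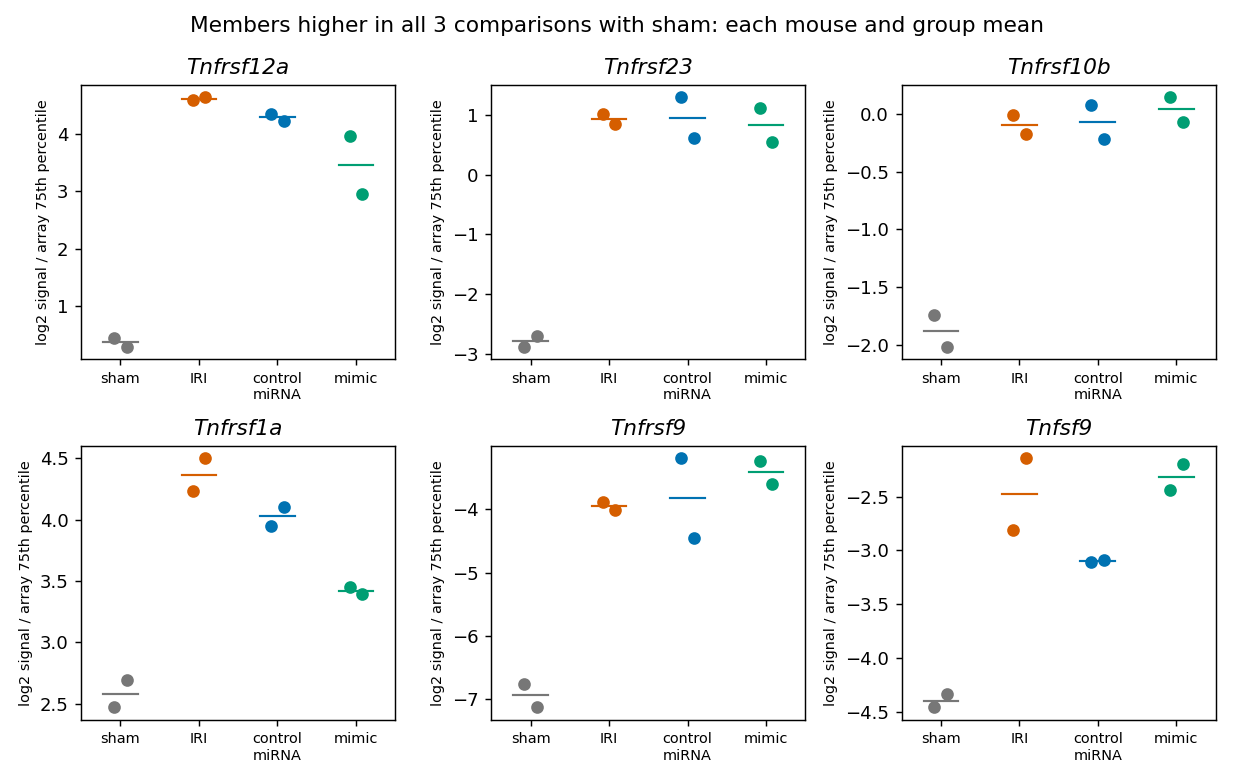
Log2 level (signal over the array's 75th percentile) of the 6 members that rose in all 3 comparisons with sham, 1 panel per gene; points are single mice, bars the mean of the 2 mice, and each panel has its own axis, which does not start at 0. In every panel the 6 injured kidneys lie above both sham kidneys, and for Tnfrsf1a and Tnfrsf12a the 2 mimic kidneys lie below the 4 other injured kidneys. Tnfrsf9 and Tnfsf9 were kept only through injured groups.

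Among the 9 ligands tested, Tnfsf9 rose in all 3 comparisons and Tnfsf12 in IRI only, while 7 passed the test in none. Tnfsf9, the 4-1BB ligand, a costimulator of T cells, lay at -4.46 and -4.34 in sham kidneys, -2.82 and -2.14 in IRI kidneys, -3.11 and -3.09 in control-miRNA kidneys and -2.43 and -2.20 in mimic kidneys. Both sham kidneys were lowest, and 1 of them was not above background. The probe was thus kept only through injured groups, and a difference from sham was built into its selection. The difference from sham was 1.92 ± 0.24 in IRI (adjusted p = 0.00426), 1.29 ± 0.24 with control miRNA (adjusted p = 0.0166) and 2.08 ± 0.24 with the mimic (adjusted p = 0.00298). These calls held in 12, 7 and 11 of 12 other settings. Tnfsf12 encodes TWEAK, the ligand of the Tnfrsf12a receptor. Its levels were -1.92 and -1.84 in sham kidneys, -1.08 and -1.05 in IRI kidneys, -1.17 and -1.20 in control-miRNA kidneys and -1.43 and -1.94 in mimic kidneys. The IRI and control-miRNA kidneys were above both sham kidneys, and 1 mimic kidney lay below them. Tnfsf12 rose by 0.81 ± 0.20 in IRI (adjusted p = 0.0353), and was 0.69 ± 0.20 from sham with control miRNA (adjusted p = 0.0574) and 0.19 ± 0.20 with the mimic (adjusted p = 0.492).

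Tnf, the founding cytokine of the family, did not pass the test in any comparison. Its level was -1.28 and -1.46 in sham kidneys, -1.87 and -2.11 in IRI kidneys, -2.34 and -1.91 in control-miRNA kidneys and -1.78 and -1.36 in mimic kidneys. The IRI and control-miRNA kidneys lay below both sham kidneys, and 1 mimic kidney lay between them. Tnf was -0.62 ± 0.23 from sham in IRI (adjusted p = 0.111), -0.76 ± 0.23 with control miRNA (adjusted p = 0.0661) and -0.20 ± 0.23 with the mimic (adjusted p = 0.535). This probe lies at chr17:35336967-35337026 (mm9), and a further Tnf probe at chr17:35336795-35336854 was above background on 1 array only. Tnfsf10 encodes TRAIL, which binds death receptors. It lay at 1.22 and 1.33 in sham kidneys, -0.49 and 0.55 in IRI kidneys, -0.31 and 0.20 in control-miRNA kidneys and -0.59 and 0.98 in mimic kidneys. All injured kidneys were below sham, but the mice of a group lay far apart, and the differences of -1.24, -1.32 and -1.07 (each ± 0.55) did not pass the test.

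The other 5 tested ligands were near sham or varied between mice. Ltb, a subunit of the lymphotoxin heterotrimer, was -1.28 ± 0.50 from sham with control miRNA (adjusted p = 0.123), and Lta, which can join it, was -0.68 ± 0.34 in IRI (adjusted p = 0.204). Tnfsf8 (CD30 ligand) and Tnfsf15 (TL1A, the ligand of Tnfrsf25) lay within 0.43 of sham in all groups. Tnfsf13b, the B cell survival factor BAFF, had 2 kept probes that differed. The one that stood for the gene was above background in both sham and both control-miRNA kidneys, and in 0 IRI and 0 mimic kidneys. The other was above background in both sham kidneys and 1 IRI kidney, and in 0 control-miRNA and 0 mimic kidneys. Tnfsf13os, a transcript from the strand opposite to the Tnfsf12 and Tnfsf13 genes, fell in IRI, at -1.97 and -2.30 against -1.31 and -1.17 in sham (-0.89 ± 0.24, adjusted p = 0.0443). The call held in 4 of 13 other settings (adjusted p from 0.0204 to 0.221). It was at -1.99 and -1.77 in control-miRNA and -1.67 and -1.11 in mimic kidneys, where it passed no test.

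All 5 receptors with a death domain were tested. Tnfrsf1a, the widely expressed TNF receptor, was at 2.47 and 2.69 in sham kidneys, 4.23 and 4.50 in IRI kidneys, 3.95 and 4.11 in control-miRNA kidneys and 3.45 and 3.39 in mimic kidneys. The groups did not overlap, and their order was sham, mimic, control miRNA, IRI. Tnfrsf1a rose by 1.79 ± 0.18 in IRI (adjusted p = 0.00202), 1.45 ± 0.18 with control miRNA (adjusted p = 0.00433) and 0.84 ± 0.18 with the mimic (adjusted p = 0.0173). Its probe lies at chr6:125312376-125312435 in mm9. A further probe at chr6:125311454-125311513 gave 1.92 ± 0.54 in IRI (adjusted p = 0.0556) and 0.02 ± 0.54 with the mimic (adjusted p = 0.984). These values of further probes come from a fit of each kept probe on its own, chosen after seeing the data, in which 12 of 43 member probes were called in IRI, 10 with control miRNA and 15 with the mimic. Of 32216 probes in all, 15.2%, 14.3% and 28.1% were called in these comparisons, and 7.62%, 7.51% and 15.9% of all probes were called higher.

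Tnfrsf10b encodes the TRAIL receptor of the mouse. It was at -1.74 and -2.02 in sham kidneys, -0.01 and -0.18 in IRI kidneys, 0.08 and -0.22 in control-miRNA kidneys and 0.14 and -0.06 in mimic kidneys. The 6 injured kidneys lay close together and well above sham. The rise was 1.78 ± 0.19 (adjusted p = 0.00266), 1.81 ± 0.19 (adjusted p = 0.00284) and 1.92 ± 0.19 (adjusted p = 0.00205) in IRI, control-miRNA and mimic kidneys, and a further probe of the gene, above background in 0 sham and all 6 injured kidneys and so kept only through the injured groups, also passed in these 3 comparisons. Fas, the receptor of Fas ligand, stayed within a narrow band: -0.42 and -0.41 in sham kidneys, -0.59 and -0.38 in IRI kidneys, -0.50 and -0.40 in control-miRNA kidneys and -0.52 and -0.34 in mimic kidneys. All 4 groups overlapped. Its difference from sham was -0.07 ± 0.16 in IRI (95% interval -0.46 to 0.32, adjusted p = 0.785), -0.03 ± 0.16 with control miRNA (-0.42 to 0.36, adjusted p = 0.908) and -0.01 ± 0.16 with the mimic (-0.40 to 0.38, adjusted p = 0.962). The sign of these values for Fas changed when its 2 probes were averaged.

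Tnfrsf21 (DR6) and Tnfrsf25 (DR3) passed the test against sham with the mimic only. Tnfrsf21 was at 0.71 and 1.29 in sham kidneys, 1.50 and 1.26 in IRI kidneys, 1.80 and 1.49 in control-miRNA kidneys and -0.07 and -1.35 in mimic kidneys. Both mimic kidneys were below all others, by a different margin in each mouse. The difference from sham was -1.71 ± 0.42 with the mimic (adjusted p = 0.0270), 0.38 ± 0.42 in IRI (adjusted p = 0.554) and 0.64 ± 0.42 with control miRNA (adjusted p = 0.329). Tnfrsf25 was at -2.97 and -2.09 in sham kidneys, -2.31 and -1.97 in IRI kidneys, -1.97 and -2.39 in control-miRNA kidneys and -1.30 and -0.40 in mimic kidneys. The mimic kidneys were highest and the 3 other groups overlapped. Tnfrsf25 rose by 1.68 ± 0.40 with the mimic (adjusted p = 0.0243).

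The decoy receptors Tnfrsf22 and Tnfrsf23 bind TRAIL in the mouse and lie beside each other on chromosome 7. Tnfrsf23 was at -2.88 and -2.71 in sham kidneys, 1.01 and 0.84 in IRI kidneys, 1.29 and 0.61 in control-miRNA kidneys and 1.10 and 0.54 in mimic kidneys. The injured groups overlapped one another and lay far above sham. The rise was 3.72 ± 0.29 in IRI (adjusted p = 0.00102), 3.74 ± 0.29 with control miRNA (adjusted p = 0.00127) and 3.61 ± 0.29 with the mimic (adjusted p = 0.00129). Tnfrsf22 was at -3.75 and -4.04 in sham kidneys, -2.67 and -2.94 in IRI kidneys, -2.81 and -3.21 in control-miRNA kidneys and -2.58 and -3.17 in mimic kidneys. All injured kidneys were above sham. The gene rose by 1.09 ± 0.26 in IRI (adjusted p = 0.0338) and 1.02 ± 0.26 with the mimic (adjusted p = 0.0316), and was 0.88 ± 0.26 from sham with control miRNA (adjusted p = 0.0633). The IRI call held in 6 and the mimic call in 4 of 13 other settings.

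Because Tnfrsf22, Tnfrsf23 and Tnfrsf26 are closely related genes, their probes were compared for shared letters. In 11 pairs of probes from different genes of this group the longest shared run was 8 of 60 bases. A probe of each of the first 2 is shown, as the array files give it, to let the difference be seen. The Tnfrsf22 probe lies at chr7:150826673-150826732 and the Tnfrsf23 probe at chr7:150865851-150865910, both on the minus strand of mm9.
Tnfrsf22: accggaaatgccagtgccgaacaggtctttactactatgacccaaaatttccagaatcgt
Tnfrsf23: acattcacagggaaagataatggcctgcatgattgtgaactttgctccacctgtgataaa
The Tnfrsf22 probe shown rose in all 3 comparisons, by 2.10 ± 0.31, 1.72 ± 0.31 and 2.03 ± 0.31 in IRI, control-miRNA and mimic kidneys (adjusted p = 0.00771, 0.0156 and 0.00652), from a sham mean in which 1 of 2 kidneys was not above background. That probe was kept only through injured groups, so a difference from sham was built into its selection. The Tnfrsf23 probe shown passed the test with the mimic only (1.43 ± 0.27, adjusted p = 0.0127), at 0.63 ± 0.27 in IRI and 0.79 ± 0.27 with control miRNA, whereas the 2 other probes of Tnfrsf23 rose in all 3 comparisons, 1 of them kept only through injured groups, with 0 sham kidneys above background. The size of the Tnfrsf23 response therefore depended on the probe.

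Of the 16 receptors that bind TRAF adaptors 11 were tested, and Tnfrsf12a had the largest rise in IRI among the members above background in sham. Tnfrsf12a, the TWEAK receptor Fn14, was at 0.45 and 0.30 in sham kidneys, 4.58 and 4.63 in IRI kidneys, 4.34 and 4.23 in control-miRNA kidneys and 3.95 and 2.94 in mimic kidneys. The groups did not overlap, and the mimic kidneys lay between sham and the other injured kidneys. The rise was 4.23 ± 0.31 in IRI (adjusted p = 0.000983), 3.91 ± 0.31 with control miRNA (adjusted p = 0.00147) and 3.07 ± 0.31 with the mimic (adjusted p = 0.00208). Tnfrsf9 encodes 4-1BB, the receptor of the Tnfsf9 ligand. It was not above background in either sham kidney (-6.75 and -7.12), and was at -3.89 and -4.01 in IRI, -3.20 and -4.46 in control-miRNA and -3.24 and -3.60 in mimic kidneys. Measured against the lowest signal well above background on the sham arrays, Tnfrsf9 was at least 1.68-fold higher in IRI (adjusted p = 0.00511), at least 1.83-fold with control miRNA (adjusted p = 0.00489) and at least 2.43-fold with the mimic (adjusted p = 0.00275).

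The start sites of these 2 receptors are shown because they had large rises of unlike kind, 1 from a level well above background and 1 from below it. RefSeq windows of 250 bases before to 50 bases after each start matched 31 of the 40 members by symbol. They were searched on both strands for an AP-1 site (TGANTCA), a kappaB site by its consensus, whose overlapping matches count separately, and a GC box (GGGCGG). The Tnfrsf12a window is chr17:23677400-23677699 on the minus strand and the Tnfrsf9 window chr4:150927749-150928048 on the plus strand of GRCm38.p6. Capitals mark GC boxes in the first, and a kappaB stretch followed by an AP-1 match in the second.
Tnfrsf12a: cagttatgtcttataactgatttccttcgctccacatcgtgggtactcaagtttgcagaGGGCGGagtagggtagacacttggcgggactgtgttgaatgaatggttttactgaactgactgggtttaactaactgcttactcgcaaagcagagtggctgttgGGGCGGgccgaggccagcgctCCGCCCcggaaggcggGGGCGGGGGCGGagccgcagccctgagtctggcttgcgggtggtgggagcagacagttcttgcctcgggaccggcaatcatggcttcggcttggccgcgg
Tnfrsf9: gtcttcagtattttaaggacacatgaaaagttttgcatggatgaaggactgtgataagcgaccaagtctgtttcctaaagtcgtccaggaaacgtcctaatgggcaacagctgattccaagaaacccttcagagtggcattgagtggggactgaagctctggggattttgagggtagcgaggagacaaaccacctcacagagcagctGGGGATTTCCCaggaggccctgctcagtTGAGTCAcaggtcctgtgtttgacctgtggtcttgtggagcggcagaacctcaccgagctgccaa
The Tnfrsf12a window held 5 GC boxes and neither of the other motifs. The Tnfrsf9 window held 2 overlapping kappaB matches, the first starting 43 bases before the start site, and 1 AP-1 match 15 bases before it. A further Tnfrsf9 start in RefSeq, chr4:150919905-150920204, held neither of these and 1 GC box. Of 32851 windows, 7.81% held an AP-1 match, 8.46% a kappaB match and 35.7% a GC box. Among the 31 matched members 5, 4 and 16 did. A member was counted once for a match in any of its windows, 35 in all. These counts of genes therefore cannot be set against the shares of windows. A match of letters is a description and not a measured site.

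Tnfrsf4 (OX40, a T cell costimulatory receptor) passed the test against sham with the mimic and not in the other groups. It was at -2.63 and -2.38 in sham kidneys, -2.26 and -2.47 in IRI kidneys, -2.46 and -2.27 in control-miRNA kidneys and -1.81 and -1.69 in mimic kidneys, a difference from sham of 0.76 ± 0.18 with the mimic (adjusted p = 0.0244) and 0.14 ± 0.18 in both other groups. The mimic call held in 4 of 13 other settings, over which the difference ran from 0.31 to 0.88. Neither mimic against IRI (adjusted p = 0.0567) nor mimic against control miRNA (adjusted p = 0.0777) passed the test. Tnfrsf19 (TROY) and Eda2r, a receptor of ectodysplasin, were above both sham kidneys in all 6 injured kidneys, by the probes that stood for them, without passing the test. Tnfrsf19 differed by 0.76 ± 0.27 in IRI (adjusted p = 0.0982), but its other kept probe was at -0.72 ± 0.42 in IRI (adjusted p = 0.284) and -0.44 ± 0.42 with control miRNA (adjusted p = 0.519). Eda2r, above background in 0 sham and both IRI kidneys, was at least 1.69-fold higher there (adjusted p = 0.0948). Tnfrsf14 (HVEM, the receptor of LIGHT) was -0.47 ± 0.18 from sham in IRI (adjusted p = 0.124) and -0.45 ± 0.18 with control miRNA (adjusted p = 0.135). Ltbr, the lymphotoxin beta receptor, Tnfrsf11a (RANK), Tnfrsf13b (TACI) and Tnfrsf18 (GITR) were between -0.29 and 0.66 from sham in all 3 comparisons and passed the test in none.

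**Figure D2:**
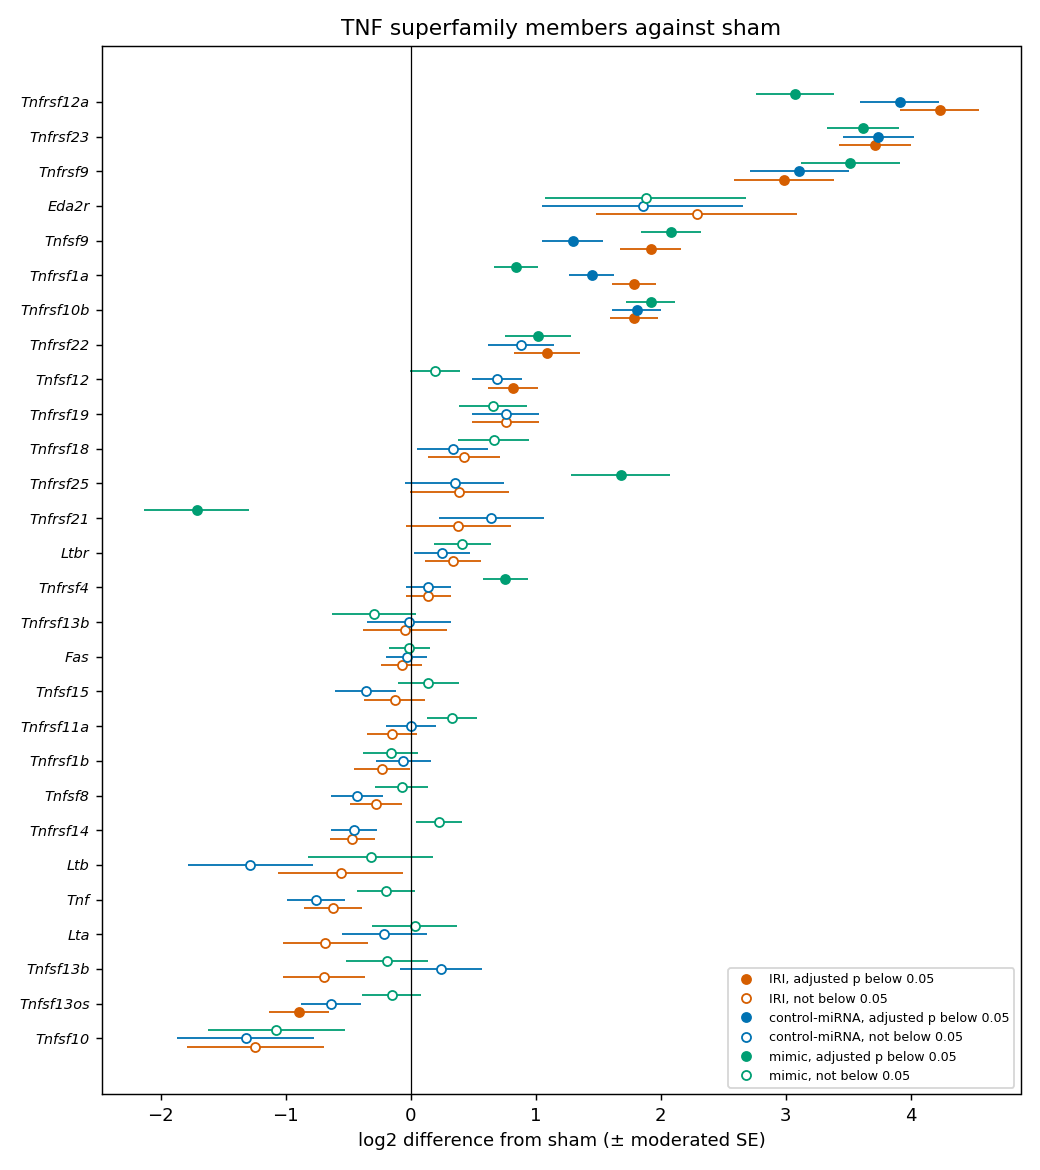
Log2 difference from sham of the 28 tested members in IRI, control-miRNA and mimic kidneys, with moderated standard errors; filled points have an adjusted p below 0.05. The values range from 4.23 for Tnfrsf12a to -1.71 for Tnfrsf21, and Tnfrsf21 and Tnfrsf25 stand out in the mimic group; Tnfrsf9 and Eda2r were not above background in sham, so the plotted values of these 2 genes are no measure of fold.

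Tnfrsf1b, the TNF receptor of leukocytes and endothelium, gave different answers from its 2 probes. The brighter one stood for the gene. It matches the clone AK170464 at chr4:144833903-144833961 (mm9, minus strand). Its level was -0.87 and -0.99 in sham kidneys, -1.02 and -1.30 in IRI kidneys, -1.07 and -0.92 in control-miRNA kidneys and -0.83 and -1.35 in mimic kidneys, which passed no test. The other probe matches the RefSeq transcript NM_011610 at chr4:144804304-144804363. It was not above background in sham (-5.74 and -6.40) and lay at -2.52 and -3.58 in IRI, -3.10 and -2.57 in control-miRNA and -2.66 and -3.33 in mimic kidneys. It was above background in all 6 injured kidneys and thus passed the filter only through the groups where it is high, so a difference from sham was built into its selection. In the fit of single probes it was at least 3.13-fold higher in IRI (adjusted p = 0.00703), at least 3.64-fold with control miRNA (adjusted p = 0.00609) and at least 3.26-fold with the mimic (adjusted p = 0.00511).

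The fall of Tnfrsf21 in mimic kidneys also rested on 1 of 2 probes. The probe that fell lies at chr17:43225326-43225385 in mm9. The other, at chr17:43174856-43174915 on the plus strand, is printed here because it did not follow.
Tnfrsf21: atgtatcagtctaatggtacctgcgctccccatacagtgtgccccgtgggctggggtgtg
It was at -0.78 and -0.60 in sham kidneys, -0.52 and -0.91 in IRI kidneys, -0.50 and -0.42 in control-miRNA kidneys and -0.37 and -0.35 in mimic kidneys. Its difference from sham in mimic kidneys was 0.33 ± 0.19 (adjusted p = 0.223), of opposite sign to -1.71. Tnfsf10 had a similar split. Its further probe is 4 copies of a 15-base unit, agcgcccctgacaac, and was 0.93 ± 0.27 higher in mimic than in IRI kidneys (adjusted p = 0.0495), where the probe that stood for the gene gave 0.17 ± 0.54 (adjusted p = 0.834). Neither the exons nor the untranslated regions that the probes lie in were looked up, since no mm9 annotation was used here.

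**Figure D3:**
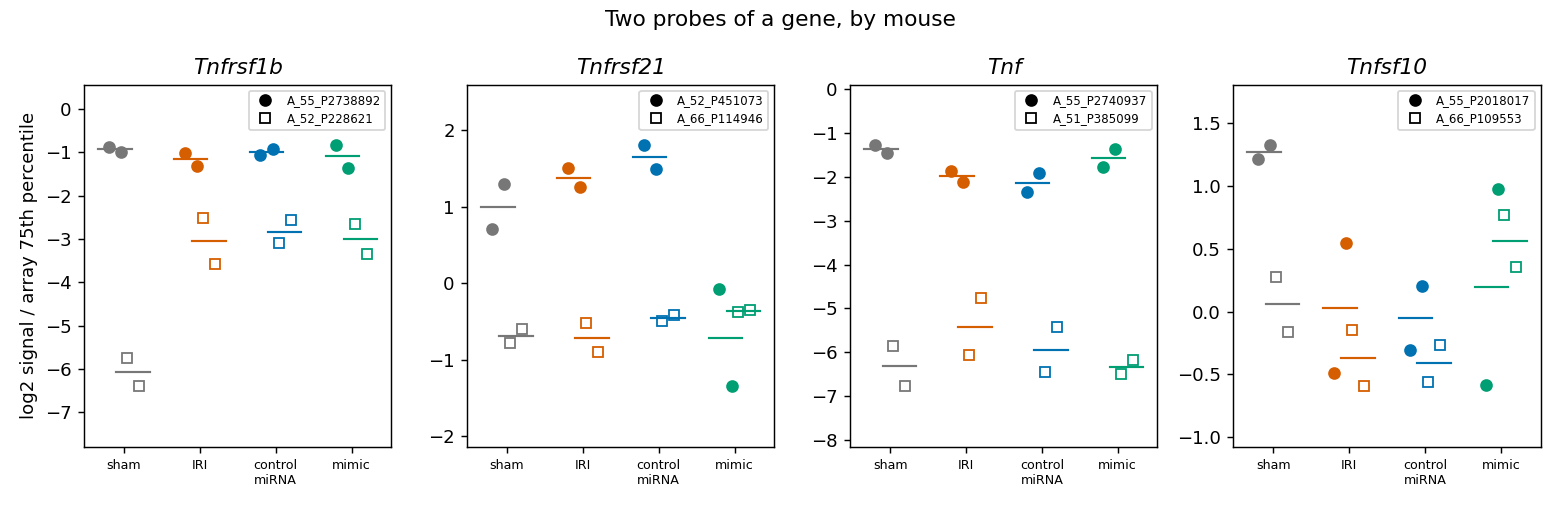
Log2 level by mouse from both probes of Tnfrsf1b, Tnfrsf21, Tnf and Tnfsf10; filled circles are the probe that stood for the gene, open squares the other, bars are means of 2 mice, and each panel has its own axis. The open Tnfrsf1b squares rise from -5.74 and -6.40 in sham, not above background, while its circles do not; the open Tnfrsf21 squares do not fall with the mimic; the open Tnf squares were above background on 1 array only.

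The mimic was compared with the control miRNA to ask what the small RNA adds when injury and nanoparticle are shared. No member passed the test, and no gene on the array did: 0 of 28 members and 0 of 21264 genes (0%) had an adjusted p below 0.05 in limma, while 9 members and 7188 genes had an unadjusted p below 0.05. The median difference was 0.20 for the members and 0.07 for all genes, and the members' median became 0.0060 with quantile scaling, 0.0059 with the deposited ratios and -0.018 with normexp. In 13 of 28 members the 2 groups did not overlap, where 59.2% of all genes did not.

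The largest differences between mimic and control miRNA were those of Tnfrsf21, Tnfrsf25 and the ligand Ltb. Tnfrsf21 differed by -2.36 ± 0.42, lower with the mimic (95% interval -3.36 to -1.36, adjusted p = 0.0662) and Tnfrsf25 1.33 ± 0.40 higher (0.38 to 2.27, adjusted p = 0.0809). Tnfrsf1a was -0.61 ± 0.18 from the control-miRNA level (-1.03 to -0.18, adjusted p = 0.0788) and Tnfrsf12a -0.83 ± 0.31 (-1.58 to -0.09, adjusted p = 0.119). Of the ligands, Ltb was 0.96 ± 0.50 higher (-0.22 to 2.15, adjusted p = 0.214), Tnfsf9 0.79 ± 0.24 higher (adjusted p = 0.0848), Tnf 0.56 ± 0.23 higher (adjusted p = 0.142) and Tnfsf12 lower, at -0.50 ± 0.20 (adjusted p = 0.133). Tnfrsf10b, Tnfrsf22 and Tnfrsf23 lay within 0.14 of the control-miRNA level, and the interval for Tnfrsf23 ran from -0.81 to 0.56. Without mimic mouse 6, 7 members and 6318 genes passed the test. With normexp background correction 1 member (Tnfrsf21) and 1468 genes did, and with only probes above background on all arrays Tnfrsf21 and 1495 genes. Mimic arrays were the dimmest and their mice the most unlike; the part of either in these values was not tested beyond the fits given in the closing section.

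Against IRI, mimic kidneys had 3 members past the test of 28, where 16.0% of all genes were called (10.5% higher, 5.53% lower). Tnfrsf1a and Tnfrsf21 were lower and Tnfrsf14 was higher, and the median of the members was 0.16 against 0.10 for all genes. The members' median turned to -0.023 with quantile scaling, -0.0044 with normexp and -0.024 with the deposited ratios. The groups did not overlap in 15 members, where 67.2% of all genes did not. Tnfrsf1a, at 3.45 and 3.39 in mimic kidneys and 4.23 and 4.50 in IRI kidneys, fell (-0.95 ± 0.18, adjusted p = 0.0386), and its further probe also fell (-1.90 ± 0.54, adjusted p = 0.0489), 1 of 6 member probes called where 20.1% of all probes were. Tnfrsf21 fell (-2.09 ± 0.42, adjusted p = 0.0386), and its further probe was 0.35 ± 0.19 higher (adjusted p = 0.205). Tnfrsf12a, at 3.95 and 2.94 in mimic kidneys and 4.58 and 4.63 in IRI kidneys, missed the threshold (-1.16 ± 0.31, adjusted p = 0.0502). Tnfrsf14 was at -2.26 and -2.20 in mimic and -2.77 and -3.08 in IRI kidneys, a difference of 0.70 ± 0.18 (adjusted p = 0.0486), a call that held in 4 of 13 other settings. Its probe, at chr4:154300709-154300768 on the minus strand of mm9, is shown as the 1 member that rose against IRI.
Tnfrsf14: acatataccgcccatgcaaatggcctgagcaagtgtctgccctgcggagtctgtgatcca
The count of 3 was 0 with array brightness as a covariate and in a fit of the 2 groups alone, where 0 of all genes were called. It was 9 without the filter on dim probes, where 11947 genes were called and members not otherwise tested were included. With only probes above background on all arrays it was 6, where 4368 genes were called. With each kept probe tested on its own it was 5, where 20.1% of all probes were called. With a mouse left out the count moved in both directions.

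**Figure D4:**
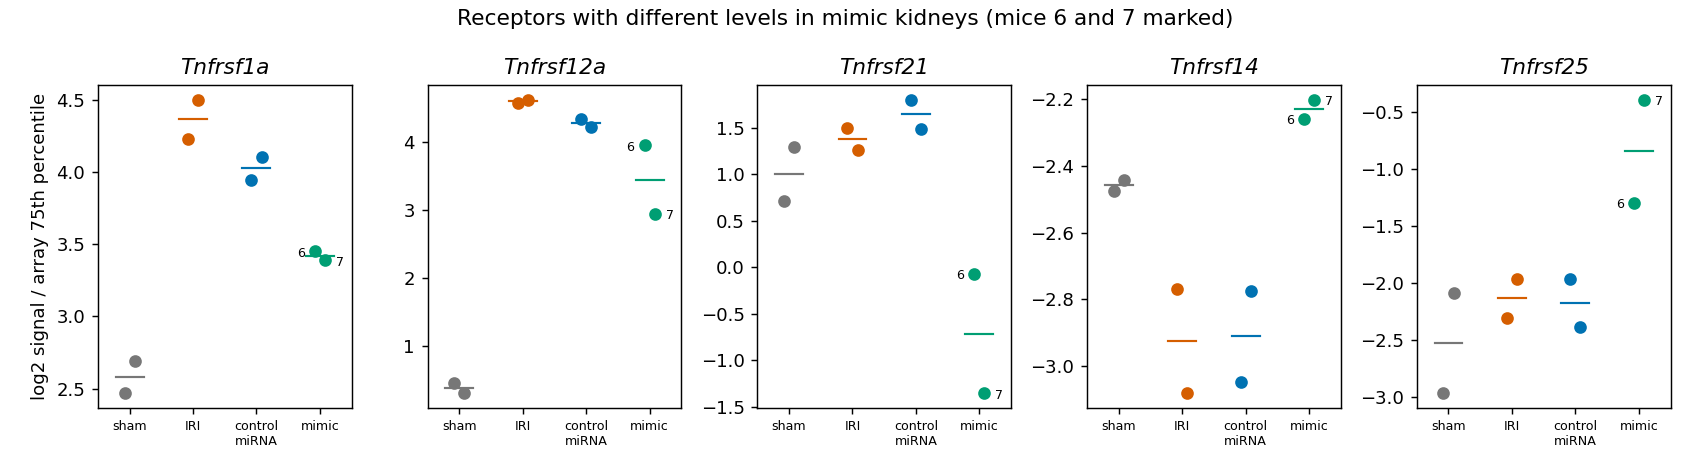
Log2 level by mouse of Tnfrsf1a, Tnfrsf12a, Tnfrsf21, Tnfrsf14 and Tnfrsf25, with group means as bars and mimic mice 6 and 7 marked; each panel has its own axis, which does not start at 0. Both mimic kidneys lie below the other injured kidneys for Tnfrsf1a (3.45 and 3.39), Tnfrsf12a and Tnfrsf21, and above all other kidneys for Tnfrsf14 and Tnfrsf25.

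Control-miRNA kidneys were compared with IRI kidneys to show the nanoparticle and its cargo on top of injury. Here 0 of 28 members passed and 0% of all genes did, while 2 members and 870 genes had an unadjusted p below 0.05 in limma, and 7 members did not overlap, where 32.6% of all genes did not. Those 2 members were the ligands Tnfsf9 (-0.62 ± 0.24, adjusted p = 1.00) and Tnfsf13b. Tnfsf13b was at -5.12 and -4.84 in IRI, not above background, and -4.12 and -3.96 in control-miRNA kidneys, at least 1.74-fold higher there (adjusted p = 1.00). Its other kept probe differed by -0.21 ± 0.21, in the opposite direction (adjusted p = 1.00), and was above background in 1 IRI and 0 control-miRNA kidneys. Tnfrsf12a differed by -0.32 ± 0.31 (95% interval -1.06 to 0.42) and Tnfrsf1a by -0.34 ± 0.18 (-0.76 to 0.08).

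Genes that act downstream of the receptors were taken from 3 lists and from members of the superfamily that carry other symbols. Of the 30 tested genes of receptor signalling (adaptors, kinases, caspases and NF-kB subunits, 31 on the list), 13 rose and 0 fell in IRI, where 9.45% of all genes rose and 8.85% fell. With control miRNA 11 rose and 0 fell, where 9.55% and 7.79% of all genes did, and with the mimic 8 rose and 1 fell, where 15.2% and 12.8% did. In IRI the rises with the smallest p were those of Relb (2.33 ± 0.21, adjusted p = 0.00157) and Nfkb2 (2.15 ± 0.21, adjusted p = 0.00184), the subunits of the noncanonical NF-kB pathway that Tnfrsf12a and Ltbr can engage. They were followed by Mlkl, the effector of necroptosis (3.58 ± 0.39, adjusted p = 0.00262), the death receptor caspase Casp8 (1.69 ± 0.20, adjusted p = 0.00350), Birc3, a ubiquitin ligase bound to TRAF proteins (1.70 ± 0.20, adjusted p = 0.00360), and the adaptor Traf3 (1.01 ± 0.16, adjusted p = 0.00941). With the mimic the kinase Ripk1 fell (-0.57 ± 0.16, adjusted p = 0.0418). Against IRI, the mimic kidneys had lower Casp8 (-0.93 ± 0.20, adjusted p = 0.0387) and higher Traf6 (1.37 ± 0.36, adjusted p = 0.0486), and the sign of Traf6 turned with array brightness as a covariate.

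Of 14 genes of feedback and shedding, which limit NF-kB or cut ligands and receptors from the membrane, all were tested and 6 rose in IRI, 6 with control miRNA and 5 with the mimic, and 0 fell, where 18.3%, 17.3% and 28.0% of all genes were called in either direction. Rhbdf2, a partner of the TNF-shedding protease, rose by 1.76 ± 0.15 in IRI (adjusted p = 0.00132), and Nfkbia, which holds NF-kB in the cytoplasm, by 0.80 ± 0.18 (adjusted p = 0.0290). Of 18 genes known to be induced by TNF 13 were tested: 7 rose and 2 fell in IRI, 4 rose and 1 fell with control miRNA, and 7 rose and 1 fell with the mimic. Ccl20, which rose in IRI, and Il6, which rose with the mimic, were above background on 7 and 4 arrays and lowest in sham. Both were kept only through injured groups, so a difference from sham was built into their selection. The neutrophil chemokine Cxcl1 rose by 6.25 ± 0.41 in IRI (adjusted p = 0.000891), the macrophage growth factor Csf1 by 2.23 ± 0.19 (adjusted p = 0.00116) and the adhesion molecule Icam1 by 2.13 ± 0.24 (adjusted p = 0.00286). Tnfaip8 fell in all 3 comparisons, by 1.09, 1.18 and 1.56 in IRI, control-miRNA and mimic kidneys. Other stimuli induce these genes too. Of 6 superfamily members under other symbols 3 were tested, and the ligand Eda rose in IRI (0.98 ± 0.22, adjusted p = 0.0269).

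**Figure D5:**
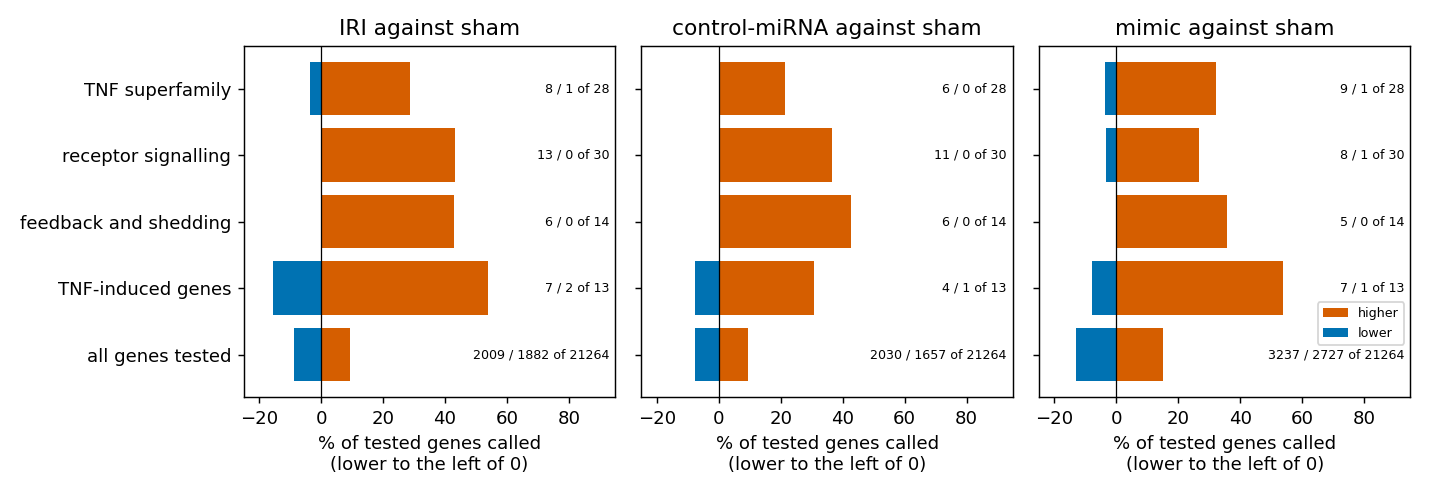
Share of tested genes called higher (right of 0) or lower (left of 0) against sham, in percent, for the TNF superfamily, 3 pathway lists and all genes tested; printed counts are higher / lower of tested. In IRI 8 of 28 superfamily members, 13 of 30 signalling genes, 6 of 14 feedback and shedding genes and 7 of 13 TNF-induced genes were higher, against 2009 of 21264 genes in all. The members Eda2r, Tnfrsf9, Tnfsf9 and Tnfrsf18 and the TNF-induced genes Ccl20 and Il6 were kept only through injured groups.

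Markers of kidney and blood cells moved as well. Over all genes, 9.45% rose and 8.85% fell in IRI, 9.55% and 7.79% with control miRNA, and 15.2% and 12.8% with the mimic. Between mimic and IRI kidneys, 10.5% were higher with the mimic and 5.53% lower. Of 6 proximal tubule markers 4 fell and 0 rose in each comparison with sham. The log2 of their summed signal was 10.3 to 10.4 in sham, 9.46 to 9.62 in IRI, 9.49 to 9.82 in control-miRNA and 9.95 to 10.1 in mimic kidneys. Sums of other markers below are given in the same way. This sum followed its brightest probe, Kap, at 9.60 and 9.37 in sham and 9.65 and 9.78 in mimic kidneys. Kap was the 1 marker of these 6 with a higher mean in mimic than in sham kidneys. Of 2 collecting duct markers 1, 1 and 2 fell in IRI, control-miRNA and mimic kidneys, and of 5 endothelial markers 2 were higher in mimic than in IRI kidneys. Several members are carried by leukocytes. Of 10 markers of T and NK cells 8 were tested. In IRI 0 rose and 1 fell, and with control miRNA and the mimic 0 rose and 2 fell. Cd3g, Cd2 and Klrb1c were highest in sham and above background on 3, 3 and 2 arrays. They were kept only through sham, so a fall from sham was built into their selection. Cd8a and Ncr1 were above background on 0 arrays. The log2 of the summed signal of the 8 markers was 2.43 to 2.78 in sham, 1.84 to 2.10 in IRI, 1.73 to 2.07 in control-miRNA and 2.53 to 2.72 in mimic kidneys. This sum followed its brightest probes, Cd3e and Cd4. They were the 2 of 8 markers with a higher mean in mimic than in sham kidneys, where the median difference of the 8 was -1.65. That median includes Cd3g, Cd2 and Klrb1c, which were kept only through sham. Of 6 macrophage markers 1 rose (Cd68) and 3 fell in IRI, with sums of 5.03 to 5.52 in sham, 3.73 to 3.89 in IRI, 3.95 to 4.33 in control-miRNA and 5.10 to 6.10 in mimic kidneys. Against IRI, 4 of the 6 were higher with the mimic and 0 lower. In mimic against IRI, 0 genes passed the test with array brightness as a covariate or in a fit of the 2 groups alone. Of 5 tested neutrophil markers 3 (S100a8, S100a9 and Cxcr2) rose in all 3 comparisons with sham, with sums of 5.50 to 5.65 in sham, 5.47 to 5.66 in IRI, 5.63 to 5.96 in control-miRNA and 6.20 to 6.62 in mimic kidneys. Cxcr2 was above background on 6 arrays, with its lowest values in sham (-6.18 and -5.41). It was kept only through injured groups, so a difference from sham was built into its selection. A sum follows its brightest probe, which was Itgam for macrophages and Csf3r for neutrophils. Csf3r passed the test in none of the 3 comparisons with sham. The part of any of these cells in the members' values was not tested.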

How the data were processed

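RNA of 8 left kidneys was measured on 1 slide with 1 scan time. Arrays of sham and IRI lay in the first slide row and those of mimic and control miRNA in the next, so injection and slide row cannot be told apart. The submitters' processing notes name Agilent Feature Extraction 12.0.3.1. The deposited spot intensity is its processed signal, background-subtracted and not scaled between arrays, with raw mean and local background intensity beside it, per the file headers. Spot flags are other values, 0 or 1, per the file headers. In the series table the authors deposited a ratio, which its values show to be that of a probe to its own median of the 8 arrays, with earlier scaling not given in the sources used here. It served as an alternative. No value column was left unused (0).

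Control spots and spots with an outlier flag (79 to 127 per array) were dropped; 0 spots were saturated. The processed signal was divided by the array's 75th percentile, log2 was taken, and spots of a probe were averaged. Probes well above background on both arrays of a group were kept (32218), and the kept probe with the highest mean stood for its gene. The deposited gene names were updated through RefSeq accessions (33767 probes), symbols (9866) or older symbols (310) of GRCm38, and 12662 probes kept the file's name. Probe positions are mm9, as in the files. limma 3.58.1 in R 4.3.3 (lmFit, eBayes) was fitted to all 8 arrays with a mean per group (6.84 degrees of freedom after moderation), with Benjamini-Hochberg adjustment over 21264 genes and a threshold of 0.05. The fit was checked on simulated data. "At least N-fold" sets the bright group's mean against, per dim array, its own value or the lowest signal well above background, whichever is higher. The number of arrays limits the precision.

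Members are named with a test where they pass it; Tnfrsf12a, Tnfrsf1a, Fas and Tnf are named in every comparison with sham, and up to 6 called genes per pathway list by smallest p. Some further members are given with values that were chosen after they had been seen. The members and lists were chosen with earlier results of these data known. Alternatives were normexp (offset 50) with quantile normalization, quantile or median scaling, other filters and probe rules, the deposited ratios, brightness as a covariate, 2 groups alone, each mouse left out, and each probe on its own. Results for some marker genes are left out here.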

Additional observations from a re-analysis of the deposited data

Results flagged for a closer look

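In 3 of 28 tested members the difference from sham was not the same with the mimic as in IRI alone, by the test of mimic against IRI itself. In that comparison 16.0% of all genes were called. None of these calls held with array brightness as a covariate or in a fit of the 2 groups alone. Tnfrsf14 was 0.70 higher with the mimic (adjusted p = 0.0486), higher in both mimic kidneys than in both IRI kidneys. Tnfrsf1a differed by -0.95 (adjusted p = 0.0386) and Tnfrsf21 by -2.09 (adjusted p = 0.0386), and both mimic kidneys were lower than both IRI kidneys. The further probe of Tnfrsf21 differed by 0.35, in the opposite direction. These values are from limma with 2 mice in each group.

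Mimic and control-miRNA kidneys lay on opposite sides of both sham kidneys for Tnfrsf14 and Tnfrsf21. The differences between mimic and control miRNA were 0.68 (adjusted p = 0.0708) and -2.36 (adjusted p = 0.0662), which did not pass the test. By the further probe of Tnfrsf21, mimic (-0.37 and -0.35) and control-miRNA kidneys (-0.50 and -0.42) both lay above sham (-0.78 and -0.60). Such orders were sought in all tested members, and their share among all genes was not computed. Mimic and control-miRNA kidneys did not overlap in 59.2% of all genes. By the probe that stood for Tnfsf13b, the control-miRNA kidneys lay above and the IRI kidneys below both sham kidneys, with a difference of 0.94 between them (adjusted p = 1.00); the IRI values were not above background, and 1 control-miRNA kidney (-4.12) was barely above the higher sham kidney (-4.13). The other kept probe of the gene put both control-miRNA kidneys below both sham kidneys (-0.52 from sham).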

How the results depend on the processing

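Of 118 named results, 1522 values under other settings gave 1256 on the same side of the threshold, 226 that lost the call, 30 that gained one and 10 of opposite sign. In IRI against sham the count of members called lay between 6 and 13 in all settings, and in control miRNA against IRI it was 0 in all. In control miRNA against sham the count of 6 became 10 with the 2 groups alone. In mimic against sham the count of 10 became 1 with array brightness as a covariate and 5 with the 2 groups alone, and lay between 5 and 10 with a mouse left out. In mimic against control miRNA the count of 0 became 1 with normexp and 1 with only probes above background on all arrays, and lay between 0 and 7 with a mouse left out. In mimic against IRI the count of 3 became 9 without the filter, 6 with only probes above background on all arrays, 0 with brightness, 0 with the 2 groups alone and 5 with each kept probe on its own (added after seeing the data), and lay between 0 and 10 with a mouse left out. With each mouse left out, the lone mouse is assumed to vary like the other groups. The cause was not tested.

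The sign turned for Fas with the mean of its probes in IRI (0.032), control-miRNA (0.27) and mimic kidneys (0.012) against sham. With a mouse left out Fas ranged from -0.17 to 0.033 in IRI, -0.087 to 0.020 with control miRNA and -0.10 to 0.076 with the mimic, and Tnf from -0.41 to 0.0091 with the mimic. With brightness as a covariate Tnf was -0.22 in mimic against control miRNA, and in mimic against IRI Tnfsf13os was -0.15 and Traf6 -0.25. The cause was not tested.

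Among all genes, 3891 were called in IRI against sham, with 1857 under brightness as a covariate, 2450 without the filter, 6785 with the 2 groups alone and 801 to 1078 with a mouse left out. In control miRNA against sham 3687 were called, with 4327 with the 2 groups alone, 2279 without the filter and 694 to 2456 with a mouse left out. In mimic against sham 5964 were called, with 115 under brightness, 3853 without the filter, 3039 with the 2 groups alone and 1100 to 7339 with a mouse left out. In mimic against IRI 3409 were called, with 11947 without the filter, 0 under brightness or with the 2 groups alone, and 0 to 7545 with a mouse left out. In control miRNA against IRI 1 gene, no member, was called with only probes above background on all arrays. Quantile scaling of mimic against IRI gave 1187 higher and 1097 lower genes, against 2234 and 1175, and moved the median of all genes from 0.10 to -0.0035; it turned the sign of no named result. No paired analysis was possible because the groups compared share at most 1 replicate number, 1 in sham and control miRNA.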
